A study of Homo sapiens with 6 samples.

Results

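Desmosomes are junctions that tie the keratin filaments of neighbouring epithelial cells together, and they give skin and heart muscle their resistance to pulling. Desmosomal cadherins (desmogleins and desmocollins) hold the cells to each other, armadillo proteins (plakoglobin and plakophilins) bind the cadherin tails inside the cell, and plakins, above all desmoplakin, connect that plaque to intermediate filaments. In carcinomas, levels of these proteins are often studied as a sign of how epithelial the cells are.

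The desmosome genes described here are 10 genes picked by name: the cadherin genes DSG2, DSC2 and DSC3, the armadillo genes JUP, PKP2, PKP3 and PKP4, and the plakin genes DSP, PPL and EVPL. All 10 are among the 27958 genes of the authors' deposited table. The list was drawn up after the level of DSP had been seen to be lower in 1 group, so the differences between the groups are given as a description. No p-value is printed for a member, and intervals show the spread between libraries only.

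The study measured RNA in PC3, an androgen-independent human cell line from a bone metastasis of prostate cancer. The cells were labelled by antibody for NRP2 (neuropilin-2, a surface co-receptor of semaphorins and of vascular endothelial growth factors), sorted into NRP2-high and NRP2-low populations and then cultured for up to 2 weeks, with RNA taken at different passages. Each population has 3 libraries, NRP2-high S38, S39 and S40 and NRP2-low S35, S36 and S37, and both are the same line with no added allele or agent named in the labels. The labels do not say which passage a library comes from, or that the libraries of a population come from separate sorts or cultures, so any p-value measures only the spread between these libraries, which may be technical.

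The libraries held 17551302 to 30726744 reads. Levels are in TPM, a share of the library that is corrected for gene length, so levels of different genes can be set side by side. The mitochondrially encoded genes took 31.0% of the TPM of S37 and 11.1% to 18.7% of the others. NRP2 itself had levels of 48.1, 42.5 and 16.6 TPM in S38, S39 and S40 and of 7.55, 5.10 and 2.71 TPM in S35, S36 and S37, so the sorted difference was present in the RNA of every library. Of the genes that mark PC3 as a carcinoma line, KRT8, KRT18 and VIM were well expressed, whereas EPCAM had 1 read over the NRP2-high and 0 over the NRP2-low libraries. EPCAM and CDH1 (given with the adherens junction genes) are markers of epithelial cells, so their near absence leaves the identity of the line resting on the labels. Summed over each list, 4 fibroblast markers reached 0.595 to 2.86 TPM in NRP2-high and 0.0140 to 0.248 TPM in NRP2-low libraries, 3 endothelial markers at most 0.114 and 0.141 TPM, 2 leukocyte markers at most 0.690 and 1.54 TPM, and 4 basal or squamous markers at most 0.123 and 0.161 TPM. Most of the fibroblast sum in NRP2-high libraries was LUM, COL1A1 stayed at 0.482 TPM or less in every library, and PDGFRA was at 0 in all but S39. The part of these cells in the results was not tested.

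The desmosome genes differed between the populations mainly in DSP and PPL. Of the 3 plakin genes DSP, PPL and EVPL, DSP was the most abundant in every NRP2-low library and PPL in every NRP2-high library. Mean levels in NRP2-high and NRP2-low cells were 5.25 ± 2.45 and 39.3 ± 17.8 TPM for DSP, and 32.6 ± 16.4 and 7.05 ± 4.56 TPM for PPL (SD, n = 3 each). The cadherin and armadillo genes overlapped between the populations wherever they were expressed at 1 TPM or more. In bulk RNA, fewer cells that express a gene and less RNA per cell cannot be told apart.

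DSP encodes desmoplakin, which anchors intermediate filaments to the desmosomal plaque and is part of every desmosome. The gene (ENSG00000096696.13) lies on the plus strand of chromosome 6 from 7541575 to 7586717 in GRCh38, the build of the table, and its value covers an exon length of 10093 bases. In NRP2-high cells DSP stood at 6.38 (S38), 6.92 (S39) and 2.43 TPM (S40), and in NRP2-low cells at 51.1 (S35), 48.1 (S36) and 18.8 TPM (S37). The populations did not overlap, and the lowest NRP2-low library, S37, was still above the highest NRP2-high library, S39. These values rest on 352, 384 and 151 reads in the NRP2-high and 4030, 2832 and 1058 reads in the NRP2-low libraries. The ratio of the means was 7.49-fold, and the log2 fold change, NRP2-high minus NRP2-low on the log2(TPM + 1) scale, was -2.66 (SE 0.44, 95% interval -3.65 to -1.66). Of all 15214 genes tested, 21 had a lower log2 fold change than DSP. Among the tested genes DSP lay at the 72.6th percentile of mean TPM in NRP2-low and at the 29.0th in NRP2-high libraries.

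PPL encodes periplakin, a plakin found at desmosomes and in the cornified envelope of skin cells that also binds intermediate filaments. The gene (ENSG00000118898.15, chromosome 16, 4882507 to 4960741, minus strand) stood in NRP2-high cells at 42.3 (S38), 41.8 (S39) and 13.7 TPM (S40). In NRP2-low cells it stood at 9.49 (S35), 9.87 (S36) and 1.80 TPM (S37). The populations did not overlap here either, but in the direction opposite to that of DSP, with S40 at 13.7 TPM close above S36 at 9.87 TPM. Reads were 1777, 1765 and 648 against 570, 443 and 77. PPL had a log2 fold change of 2.14 (SE 0.59, 95% interval 0.80 to 3.48), and 18 tested genes had a higher one. PPL overlaps SEC14L5, a gene on the other strand that stayed at 0.282 TPM or less.

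EVPL, envoplakin, which pairs with periplakin in skin, was close to absent (chromosome 17, 76004502 to 76027452, minus strand). It had 1, 2 and 1 reads in S38, S39 and S40 and 1, 0 and 0 reads in S35, S36 and S37, too few for a comparison at this depth.

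As shares of the summed TPM of DSP, PPL and EVPL, without other plakins such as MACF1, PLEC and DST, DSP made up 13.1%, 14.2% and 15.1% in S38, S39 and S40 and 84.3%, 83.0% and 91.3% in S35, S36 and S37. The share is a ratio within a library, so neither the mitochondrial share nor the depth of a library scales it. Its spread inside each population was small beside the gap between them (14.1% ± 0.98 in NRP2-high and 86.2% ± 4.46 in NRP2-low, SD, n = 3 each). This held although the TPM of both genes differed over 2-fold between libraries of the same population. The ratio of DSP to PPL was less even within NRP2-low, at 5.38, 4.87 and 10.5 in S35, S36 and S37. In S38, S39 and S40 that ratio was 0.151, 0.166 and 0.177. The summed level of the 3 genes was 48.7, 48.8 and 16.2 TPM in S38, S39 and S40 and 60.6, 57.9 and 20.6 TPM in S35, S36 and S37, and these ranges overlapped.

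**Figure D1:**
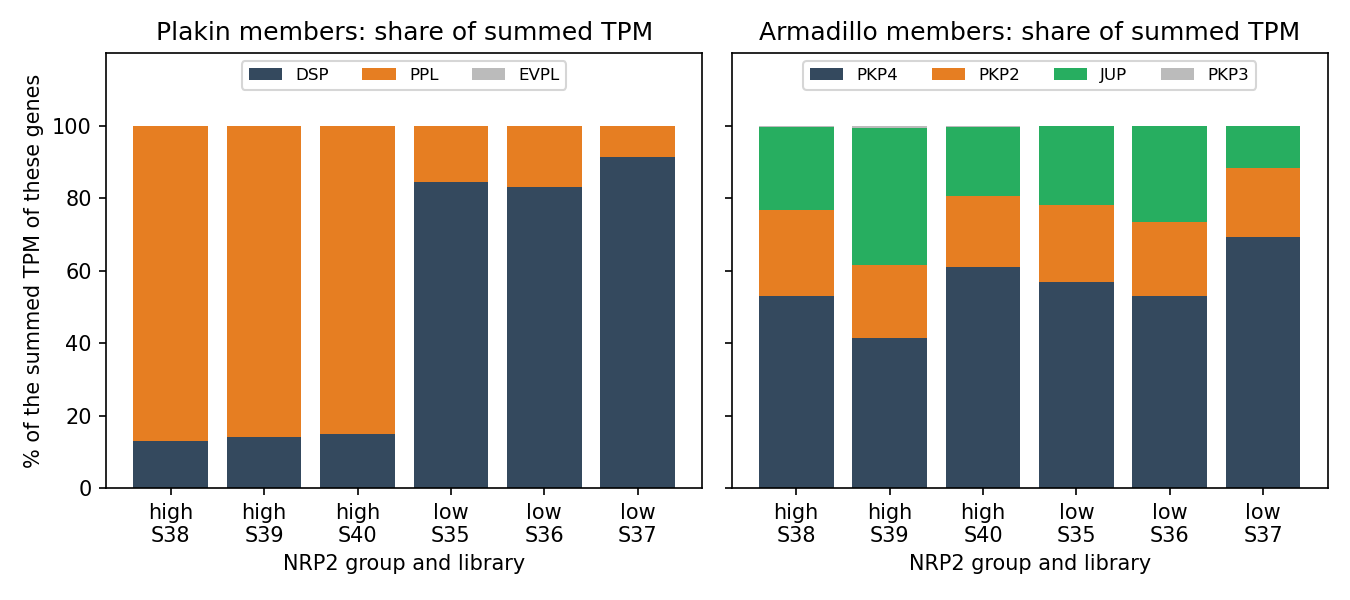
Share of DSP, PPL and EVPL in their summed TPM (left, plakin members) and of PKP4, PKP2, JUP and PKP3 in theirs (right, armadillo members), in percent, for the 3 NRP2-high and the 3 NRP2-low libraries. DSP holds 13.1% to 15.1% of the left sum in NRP2-high and 83.0% to 91.3% in NRP2-low libraries, and PKP4 has the largest share of the right sum in all 6. Other plakin and armadillo genes are not part of these sums.

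The promoter windows of the members were read to show the sequence in front of a gene whose level differed and of one whose level overlapped. RefSeq windows on GRCh38.p14, from 250 bases before to 50 bases after a gene's start, matched 6 of the 10 members with 9 windows: DSP, DSG2, DSC2, DSC3, JUP and PKP4. The windows of DSP (chr6:7541421-7541720, plus strand) and DSG2 (chr18:31497927-31498226, plus strand) follow, 5′ to 3′. Capitals mark the E-box CAGGTG, on either strand, a motif that Snail and ZEB factors are known to bind.
DSP: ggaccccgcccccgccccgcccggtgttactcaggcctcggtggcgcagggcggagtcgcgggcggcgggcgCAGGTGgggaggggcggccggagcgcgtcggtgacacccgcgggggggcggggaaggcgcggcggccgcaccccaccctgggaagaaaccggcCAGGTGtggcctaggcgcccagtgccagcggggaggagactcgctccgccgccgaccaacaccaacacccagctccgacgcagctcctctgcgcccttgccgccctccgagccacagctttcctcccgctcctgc
DSG2: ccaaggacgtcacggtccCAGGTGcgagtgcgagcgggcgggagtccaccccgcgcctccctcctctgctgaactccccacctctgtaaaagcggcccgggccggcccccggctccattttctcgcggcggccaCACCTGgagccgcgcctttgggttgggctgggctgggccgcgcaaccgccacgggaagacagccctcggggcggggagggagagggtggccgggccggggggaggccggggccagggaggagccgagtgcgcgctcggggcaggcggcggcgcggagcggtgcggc

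Both windows hold the E-box at 2 places. In DSP the matches begin at -178 and -85 from the RefSeq start, and in DSG2 at -232 and -116. The motif was in 4 of the 9 windows (DSP, DSG2, 1 of DSC2 and 1 of JUP) and in 20.6% of all 35116 windows of the same length, so it was present both in the member that was lower in NRP2-high cells and in members that overlapped. The GC box GGGCGG was in 7 of the 9 windows and in 45.0% of all, and a loose NF-kB pattern, whose matches can overlap a GC box, was in 8 of the 9 and in 58.7% of all. The CCAAT box CCAAT was in 3 of the 9 and in 34.6% of all. The AP-1 pattern TGANTCA, the Grainyhead-like pattern AACCNGTT and the TATA box TATAAA were in 0 of the 9, against 7.71%, 1.73% and 11.5% of all windows, each searched on both strands. The window of DSP is 77.0% G and C, against a median of 58.7% over all windows. A match is a description of the letters and not of binding.

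DSG2, desmoglein-2, the desmoglein of simple epithelia and of the heart, was the most abundant desmosome transcript in each of the 6 libraries. The gene (ENSG00000046604.12, chromosome 18, 31498043 to 31549008, plus strand) stood at 164, 174 and 111 TPM in S38, S39 and S40. It was at 152, 157 and 91.6 TPM in S35, S36 and S37. The populations overlapped, with S40 and S37 the lowest of their group, with a log2 fold change of 0.18 (SE 0.26, 95% interval -0.41 to 0.77).

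DSC2, desmocollin-2, the partner cadherin of desmoglein-2, was expressed at a much lower level (chromosome 18, 31058840 to 31102522, minus strand). Its levels were 6.40, 6.50 and 4.05 TPM in S38, S39 and S40 and 7.39, 7.95 and 4.26 TPM in S35, S36 and S37. The populations overlapped, with a log2 fold change of -0.17 (SE 0.28, 95% interval -0.80 to 0.47). DSC2 overlaps the antisense gene DSCAS, which stayed at 0.987 TPM or less. Within a library DSG2 exceeded DSC2 by 25.7, 26.8 and 27.3 times in S38, S39 and S40 and by 20.5, 19.7 and 21.5 times in S35, S36 and S37. These ratios did not overlap between the populations, although the levels of both genes did. Several gene ratios were computed, and how often the ratio of a gene pair separates the libraries in this way was not tested.

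DSC3, desmocollin-3, which belongs to basal and stratified epithelium, was nearly absent (chromosome 18, 30990008 to 31042741, minus strand). It had 1, 0 and 3 reads in S38, S39 and S40 and 0 reads in every NRP2-low library. Of 7 desmosome relatives listed outside the members, 4 are in the authors' table, and DSG1, DSG4 and CDSN were not found in it by name. DSC1, DSG3 and PKP1, genes of stratified epithelium, reached at most 0.076, 0.059 and 0.026 TPM in a library. PERP, a membrane protein of desmosomes and a p53 target, was higher, with 111 ± 18.7 TPM against 94.7 ± 30.3 TPM (NRP2-high against NRP2-low, SD, n = 3 each; log2 fold change 0.26, limma adjusted p = 0.895).

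JUP encodes plakoglobin, an armadillo protein that serves in both desmosomes and adherens junctions. The gene (ENSG00000173801.16, chromosome 17, 41754604 to 41786931, minus strand) was at 27.8, 48.3 and 24.0 TPM in S38, S39 and S40. It was at 23.2, 32.2 and 7.84 TPM in S35, S36 and S37. The populations overlapped, S39 was the highest and S37 the lowest of all 6, with a log2 fold change of 0.77 (SE 0.47, 95% interval -0.29 to 1.84).

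PKP2, plakophilin-2, the plakophilin of simple epithelia and heart, had levels of 29.0, 26.1 and 24.5 TPM in S38, S39 and S40 and of 22.8, 24.9 and 12.9 TPM in S35, S36 and S37 (ENSG00000057294.14, chromosome 12, 32790745 to 32896840, minus strand). S36 lay above S40, so the populations overlapped, and S37 was lowest (log2 fold change 0.43, SE 0.25, 95% interval -0.14 to 0.99). PKP4, also called p0071, a plakophilin relative found at adherens junctions as well, had levels of 64.9, 53.0 and 76.2 TPM in S38, S39 and S40 and of 61.0, 64.6 and 46.8 TPM in S35, S36 and S37 (ENSG00000144283.21, chromosome 2, 158456964 to 158680836, plus strand). This gene overlapped as well, with S40 the highest and S37 the lowest of all libraries (log2 fold change 0.17, SE 0.20, 95% interval -0.28 to 0.62).

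PKP3, a plakophilin of most epithelia (chromosome 11, 392614 to 404908, plus strand), stayed under 1 TPM in every library. It had 12, 19 and 8 reads in S38, S39 and S40 and 8, 3 and 0 reads in S35, S36 and S37. As levels, these were 0.580, 0.913 and 0.344 TPM against 0.270 and 0.136 TPM and a listed 0 in S37, too few reads for a firm comparison.

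**Figure D2:**
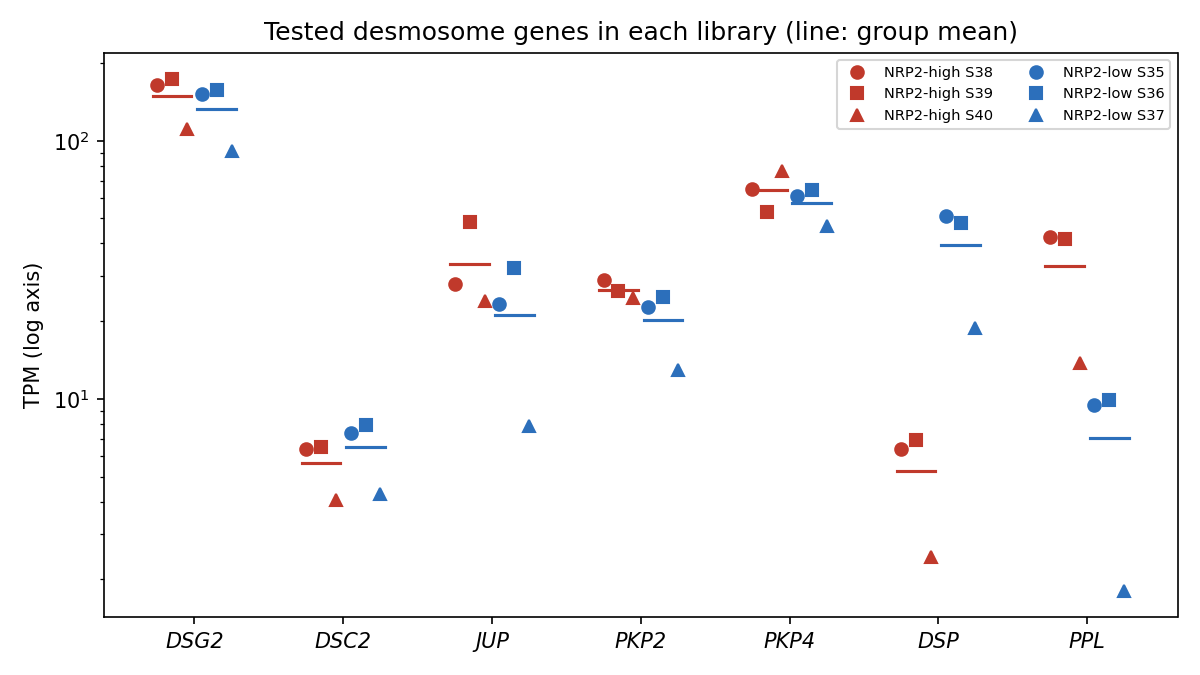
TPM (log axis) of the 7 tested desmosome genes in each library, red for NRP2-high and blue for NRP2-low, with a line at the mean of each group. DSP is lower and PPL higher in all NRP2-high libraries, and the triangles (S40 and S37) lie lowest of their group for every gene except PKP4 in NRP2-high.

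Ordered by level, DSG2 was at the top and PKP4 next in all 6 libraries. Below them the order differed between the populations. In NRP2-high libraries JUP (33.4 ± 13.1 TPM), PPL (32.6 ± 16.4 TPM) and PKP2 (26.5 ± 2.27 TPM; SD, n = 3 each) were not in 1 fixed order over the libraries, and neither were DSC2 (5.65 ± 1.39 TPM) and DSP. In NRP2-low libraries DSP ranked next after PKP4 in each library, JUP (21.1 ± 12.3 TPM) and PKP2 (20.2 ± 6.41 TPM) changed places between libraries, and so did PPL and DSC2 (6.53 ± 1.99 TPM). PKP4 had 53.1%, 41.3% and 60.9% of the summed TPM of JUP, PKP2, PKP3 and PKP4 in S38, S39 and S40 and 56.9%, 53.0% and 69.3% in S35, S36 and S37, and these shares overlapped. CTNNB1 and CTNND1, armadillo genes outside the members, are not in that sum.

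Set against all genes, 7 of the 10 members passed the filter on low values (1 TPM or more in at least 3 of the 6 libraries), and DSC3, PKP3 and EVPL did not. In the fit over all 15214 tested genes with limma, 1 of the 7, DSP, was past an adjusted p of 0.05, beside 0.835% of all tested genes in either direction, 0.486% of them lower and 0.348% higher in NRP2-high cells. PPL was not. Of the 7 tested members, 1 was without overlap and lower in NRP2-high cells, DSP, beside 3.14% of all tested genes, and 1 was without overlap and higher, PPL, beside 8.83%. PKP3 and EVPL, which were not tested, did not overlap in TPM either, on few reads. Their reads in S40 and S35 were equal (8 and 8 for PKP3, 1 and 1 for EVPL), so no direction is read from them. The contrast was used to choose the list, so nothing is read from these counts. The median log2 fold change of the 7 was 0.18, against 0.10 over all tested genes, with 5 of the 7 above 0.

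The call of DSP held in 1 of the 6 fits that left out a library, that without S37, and its log2 fold change ran from -3.11 without S37 to -2.27 without S40. Without S37, the library with the high mitochondrial share, the log2 fold change was 1.49 for PPL, 0.21 for JUP, 0.15 for PKP2, 0.03 for PKP4 and -0.07 for DSG2, and without S40 it was 0.02 for DSC2.

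**Figure D3:**
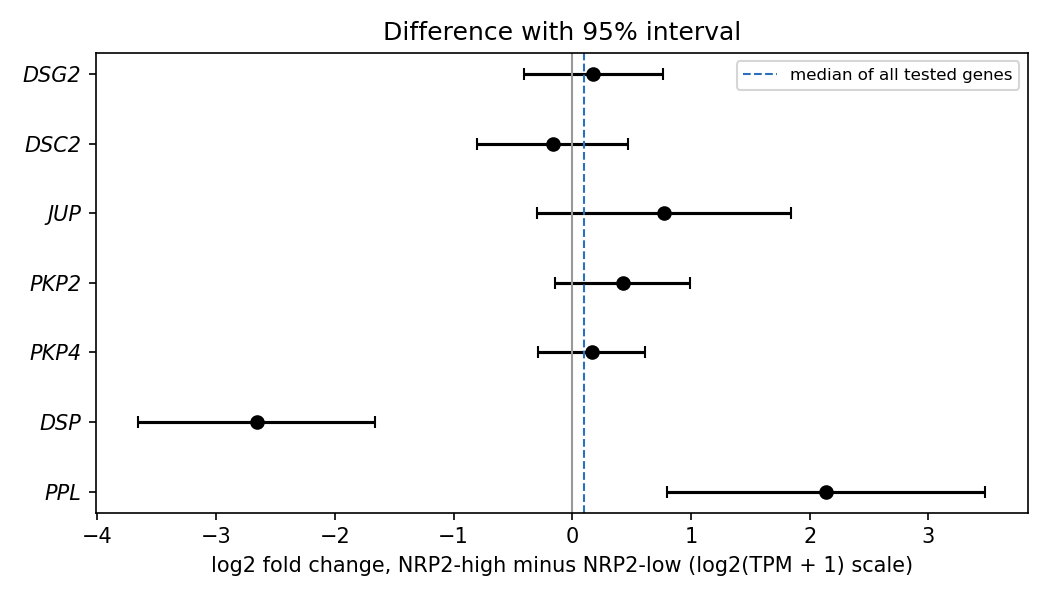
Log2 fold change of the 7 tested desmosome genes, NRP2-high minus NRP2-low on the log2(TPM + 1) scale (dots), with 95% intervals from limma (bars) and the median of all tested genes (dashed line, 0.10). DSP is at -2.66 and PPL at 2.14, and the other members are between -0.17 and 0.77. DSP was picked for this difference, so its interval is no test.

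The members also differed among libraries of the same population. S40 was the lowest NRP2-high library for 6 of the 7 tested members, and S37 was the lowest NRP2-low library for 7 of the 7. Over all tested genes S40 was lowest in 45.5% and S37 in 67.8%. Relative to the mean of S38 and S39, S40 held 36.6% of the DSP level and 32.6% of the PPL level, and relative to the mean of S35 and S36, S37 held 37.9% and 18.6%. JUP was at 63.1% in S40 and 28.3% in S37, and PKP2 at 89.0% and 54.0%. DSG2 and DSC2 were at 65.4% and 62.8% in S40 and at 59.3% and 55.6% in S37. The median over all tested genes was 94.5% in S40 and 76.5% in S37. PKP4 was the exception, at 129% in S40. The mitochondrial share was 18.7% in S40 and 31.0% in S37, the highest of each population, and its part in these levels was not tested.

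**Figure D4:**
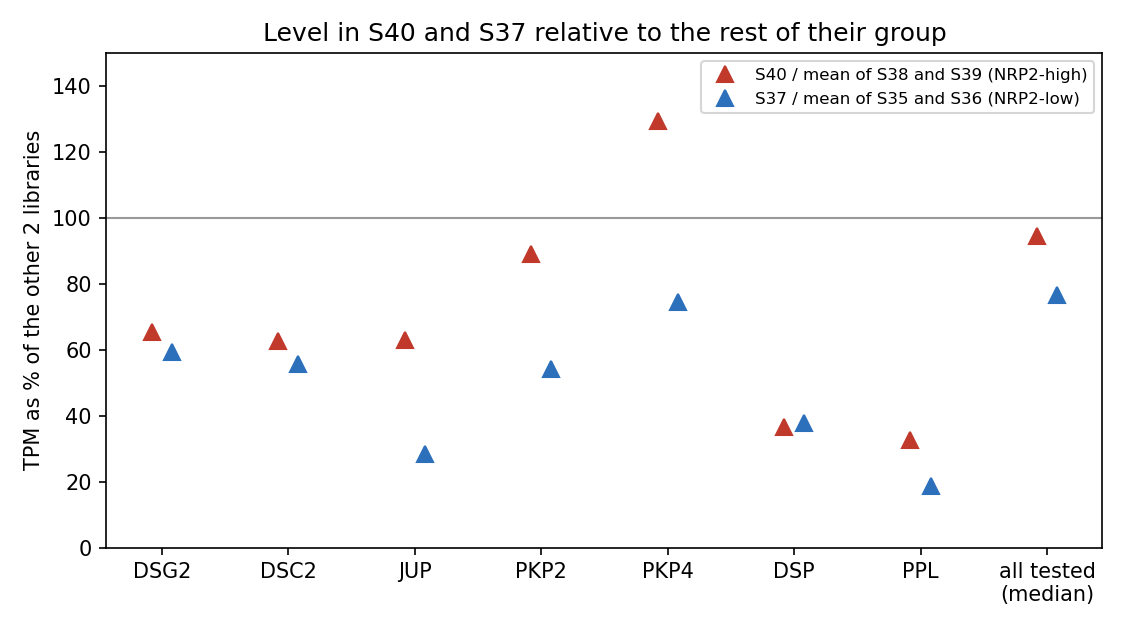
TPM in S40 as a percent of the mean of S38 and S39 (red) and in S37 as a percent of the mean of S35 and S36 (blue), for the 7 tested desmosome genes and the median of all tested genes. DSP (36.6% and 37.9%), PPL (32.6% and 18.6%) and, in S37, JUP (28.3%) are the lowest of the 7, beside medians of 94.5% and 76.5%, and PKP4 in S40 is above 100.

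The nearest tested neighbours of DSP were not past the threshold. RIOK1, a kinase of ribosome maturation and the nearest tested gene before it (123538 bases away), had a log2 fold change of -0.03 (limma adjusted p = 0.986). SNRNP48, a spliceosome gene that starts 3482 bases after the end of DSP, had -0.13 (limma adjusted p = 0.927).

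Likeness to DSP was ranked by the Pearson correlation of log2(TPM + 1) over the 6 libraries, among genes with a mean of at least 5 TPM. Symbols that begin like clone or noncoding names were left out first. That rule also dropped ordinary genes whose symbols start with letters such as AC, AL, AP, AF, CT or CR. Among the genes ranked, the 5 most like DSP were CCDC9B, B3GNT5, ADGRB1, FAM107B and EPAS1. The correlations were 0.998, 0.996, 0.995, 0.990 and 0.989 in that order, and they describe a shared pattern of 6 libraries in which both the population and the low libraries S40 and S37 take part. B3GNT5, a glycosyltransferase of lacto-series glycolipids, had levels of 3.78, 3.38 and 1.70 TPM in S38, S39 and S40 and of 23.4, 19.6 and 9.52 TPM in S35, S36 and S37. EPAS1, the hypoxia-inducible factor HIF-2 alpha, was at 7.69, 6.38 and 2.94 TPM against 42.8, 39.1 and 12.7 TPM in the same order. Both had S40 and S37 lowest of their group, as DSP had.

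Other genes of the junction were compared through 7 lists. Desmosomes hold on to keratins, and of 7 tested keratin genes 0 rose and 0 fell, with a median log2 fold change of 0.35. KRT18 and KRT8, the keratin pair of simple epithelium, were at 460 ± 118 against 489 ± 127 TPM and at 134 ± 45.9 against 106 ± 37.1 TPM (NRP2-high against NRP2-low, SD, n = 3 each), with limma adjusted p of 0.963 and 0.895. KRT86 was higher in NRP2-high cells without overlap (log2 fold change 0.896). The other tested keratins overlapped, among them KRT80 (log2 fold change 0.894). Of the 10 tested adherens junction genes 0 rose and 0 fell as well, and all 10 lay above 0 (median 0.47). CTNNA1, alpha-catenin, was at 249 ± 45.0 against 187 ± 68.1 TPM, and CTNNB1, beta-catenin, the nearest relative of plakoglobin, at 190.5 ± 6.89 against 168 ± 42.7 TPM (SD, n = 3 each).

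CDH2, N-cadherin, named after its values were seen, had levels of 90.9, 95.5 and 62.3 TPM in S38, S39 and S40 and of 38.5, 41.0 and 24.2 TPM in S35, S36 and S37. The populations did not overlap, and the log2 fold change was 1.25 (limma adjusted p = 0.0816). With the libraries scaled by the median log ratio the adjusted p was 0.0366, without mitochondrially encoded genes 0.0331 and with voom on recovered reads 0.0162. CDH2 was not past the threshold with a pseudocount of 0.1, without a filter, without a trend or with any library left out. VCL and ARVCF of the same list were also higher in NRP2-high without overlap (log2 fold changes 0.69 and 0.50). Over all tested genes 8.83% were higher without overlap. Reads of CDH1, the E-cadherin gene, numbered 1 over the NRP2-high and 3 over the NRP2-low libraries.

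The 9 tested hemidesmosome and cytolinker genes, which join keratins to the matrix or bundle filaments, had 0 that rose or fell (median 0.29). CD151 was higher in NRP2-high cells without overlap (log2 fold change 0.24), and the other tested genes of this list overlapped. Over all tested genes 8.83% were higher without overlap. ITGA6, integrin alpha-6, was at 405 ± 241 against 298 ± 108 TPM, and MACF1, a giant plakin that links actin and microtubules, at 135 ± 56.4 against 87.5 ± 28.0 TPM (SD, n = 3 each). Of 17 tested genes for desmosome assembly and turnover 0 rose or fell (median 0.21). PRKCA, FLOT2, CAV1 and ADAM10 were higher in NRP2-high cells without overlap (log2 fold changes 0.85, 0.59, 0.53 and 0.47). The other tested genes of this list overlapped. The examples with the highest levels were RHOA, a small GTPase of the actin cortex (log2 fold change 0.20, limma adjusted p = 0.895), and MAPRE1, the microtubule end protein EB1 that binds desmoplakin (0.07, adjusted p = 0.952).

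Among transcription factors, 3 tested epithelial factors had 0 that rose or fell (median 0.23), with KLF4 at 15.9 ± 7.25 against 16.3 ± 11.9 TPM and KLF5 at 17.1 ± 5.47 against 12.6 ± 6.07 TPM (SD, n = 3 each). ELF3 and TP63, which did not pass the filter, were lower in NRP2-high without overlap. They had 5 against 36 and 0 against 17 reads, too few for a firm comparison. The 4 tested factors of epithelial-mesenchymal transition (EMT) had 0 that rose or fell (median 0.57). ZEB1, a repressor of epithelial genes, was at 23.1 ± 7.36 against 16.2 ± 5.82 TPM, and SNAI1, Snail, at 4.43 ± 2.30 against 2.55 ± 1.70 TPM (SD, n = 3 each; limma adjusted p = 0.873 and 0.876). Both overlapped between the populations. SNAI2 was higher in NRP2-high without overlap (log2 fold change 0.91), beside 8.83% of all tested genes. Its levels were 3.34, 3.92 and 2.25 TPM in S38, S39 and S40. In S35, S36 and S37 they were 1.02, 1.52 and 1.06 TPM. ZEB2 went the other way, with overlap (log2 fold change -0.32). PERP was the 1 tested gene of the list of desmosome relatives. Beside these counts of 0 stand 0.835% of all tested genes past the threshold, so lists of this size hold few called genes at that rate.

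**Figure D5:**
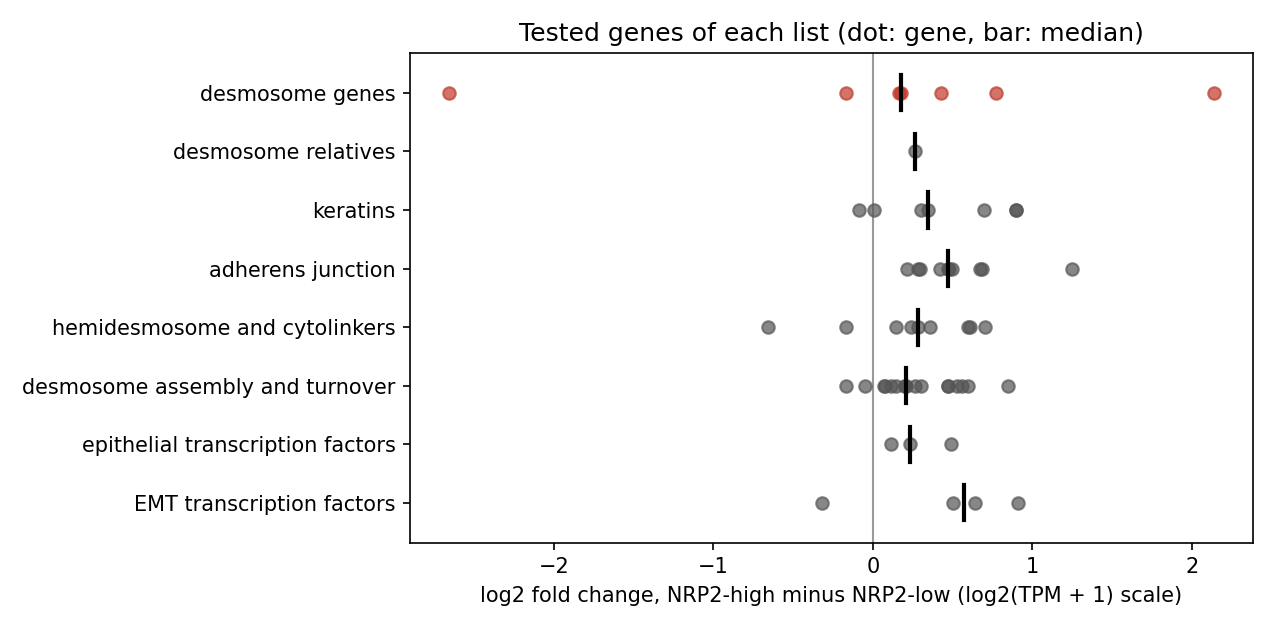
Log2 fold change, NRP2-high minus NRP2-low on the log2(TPM + 1) scale, of each tested desmosome gene (red) and of each tested gene of the 7 comparison lists (grey), with a bar at the median of each list. DSP at -2.66 and PPL at 2.14 lie outside the range of every comparison list, in which CDH2 at 1.25 is highest. DSP was picked for this difference, so its place outside the lists is no test.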

How the data were processed

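RNA was measured in 6 libraries, 3 NRP2-high and 3 NRP2-low. The authors deposited 1 table of TPM values with gene lengths; the build was hg38 (GRCh38.p12) and the tools included featureCounts 1.5.2 and DESeq2 1.20.0, per the submitters' processing notes. The sources used here give neither the aligner nor the strand setting, so reads of overlapping genes on opposite strands may be mixed. Columns were tied to populations by the group word in their names.

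TPM times gene length, over its smallest non-zero value in a library, was whole for 100% of the non-zero values at a tolerance of 0.001, which gave the read counts quoted. Genes at 1 TPM or more in at least 3 libraries (15214) were fitted as log2(TPM + 1) with limma 3.58.1 in R 4.3.3. The fit used a trend, two-sided tests, Benjamini-Hochberg over all tested genes and a threshold of 0.05. This setting was also tested on simulated data. The simulated libraries shared the same gene composition apart from the changed genes, so they do not cover low libraries such as S37 and S40. A log2 fold change on the log2(TPM + 1) scale understates the change of low genes. Python 3.11.15 and pandas 2.3.3 were used otherwise. Alternatives were a pseudocount of 0.1, no filter, no trend, median log ratio scaling, TPM without mitochondrially encoded genes, voom on recovered reads and leaving out each library.

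The members and the 12 lists were chosen with earlier results of these data known; a further set of marker genes is not reported here. All members were named. From a list without called genes the 2 with the highest mean TPM were named. Also named were the relatives of desmosome genes that the table holds and the nearest tested neighbours of DSP. The 5 genes most like DSP among those ranked were named too. CDH2, VCL, ARVCF, KRT86, KRT80, CD151, PRKCA, FLOT2, CAV1, ADAM10, ZEB2, SNAI2, ELF3 and TP63 were added after their values were seen. With 3 libraries a group, single low-read genes have wide counting error.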

Additional observations from a re-analysis of the deposited data

How the results depend on the processing

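Of 15214 tested genes 127 passed the threshold. The count was 43 (without S36) to 97 (without S40) with a library left out, 74 without a filter and 200 with voom on recovered reads. The count of desmosome genes past it, 1 (DSP), was 0 to 1 with a library left out, 0 with a pseudocount of 0.1 and 0 without a filter; DSP was past it in 4 of the 6 alternatives that kept all libraries. The cause was not tested. The adherens junction list went from 0 called genes to 1, CDH2, with median log ratio scaling, without mitochondrially encoded genes and with voom, and the other 6 comparison lists had 0 called genes under every alternative run. In 84 refits of the members' log2 fold changes 0 moved by more than the spread between NRP2-low libraries. That spread is wide where S37 lay far below S35 and S36, as for PPL and JUP, so the count says little. JUP went from 0.77 to 0.21 without S37 and still counted as not moved. DSP ran from -3.11 to -2.27 and PPL from 1.49 to 2.66, while DSG2 and DSC2, near 0, changed sign, the former without S37 and the latter without S40. As shares of reads, which count long genes more, DSP was 17.8% and 89.1% of the members of its family in NRP2-high and NRP2-low, DSG2 92.9% and 91.1%, and PKP4 63.3% and 70.0%. No paired analysis was possible because the columns carry no replicate number of the labels. Depth limits DSC3, EVPL and PKP3, which rest on 4, 5 and 50 reads over all libraries.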
